A study of Mus musculus with 4 samples.

Results

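Peripheral nerves run through brown adipose tissue, the heat-producing fat depot, and their axons are wrapped by Schwann cells. 8 genes used as markers of Schwann cells and the nerve sheath were followed here: S100b, Mbp, Sox10, Cdh19, Prx, Pmp22, Ngfr and Ncam1. They were chosen by name as a marker panel, not by a cut-off on these values. For each gene the probe set (the group of array probes that reports 1 transcript) with the highest mean was kept, among probe sets that the platform annotation gives to that gene alone. That gave 7 of the 8 genes, out of 22180 genes with such a probe set. Prx, which encodes periaxin of the myelin sheath, had 0 listed probe sets and was not analysed here. Ncam1 had a further probe set that it shares with another gene, which was left out of the comparison.

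The samples were brown fat from male C57BL/6 mice aged 4 months on a chow diet. There were 2 wild-type (WT) samples and 2 from Tsku knockout (KO) mice, which lack the gene for tsukushi, a secreted small leucine-rich proteoglycan. The labels name no Cre, promoter or other allele, and they call the samples of a genotype biological replicates without saying that each came from its own mouse. Each sample had 1 whole-transcript array with normalised log2 expression values.

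Schwann cells come in a myelinating form, which winds layers of membrane around a large axon, and a non-myelinating form, which holds bundles of thin axons, the kind that sympathetic nerves send into brown fat. SOX10 is the transcription factor that sets and keeps the Schwann cell fate, neuregulin from the axon sustains the cells through the receptors ERBB2 and ERBB3, and EGR2 drives myelination. Several of the other markers are shared with other cells. S100B is also made by brown adipocytes, where it has been linked to sympathetic innervation, PMP22 is also found in epithelial and other non-neural cells, and NCAM1 is also carried by neurons, muscle and natural killer cells.

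Background was read from olfactory receptor (Olfr) genes, which brown fat is not known to use: the 95th percentile of 1108 Olfr probe sets lay between 0.62 and 0.81 on the arrays. Between 50.1% and 53.8% of all genes lay above it on an array, and 44.7% of genes did so on all 4. Of the nerve sheath markers, 3 of 7 were above background on all 4 arrays, namely Pmp22, S100b and Mbp. Cdh19 was above it on 3 arrays, Ngfr on 2, Ncam1 on 2 and Sox10 on 0. With so few arrays the precision is low: over all genes, 95% intervals of the log2 difference reached a median of 0.52 to either side. Arrays were about as alike across genotypes as within them: Pearson's r across genes, which are not independent replicates, was 0.983 between the wild-type arrays, 0.981 between the knockout arrays and 0.977 to 0.985 between genotypes. Tsku had no listed probe set, so the genotypes rest on the labels.

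**Figure D1:**
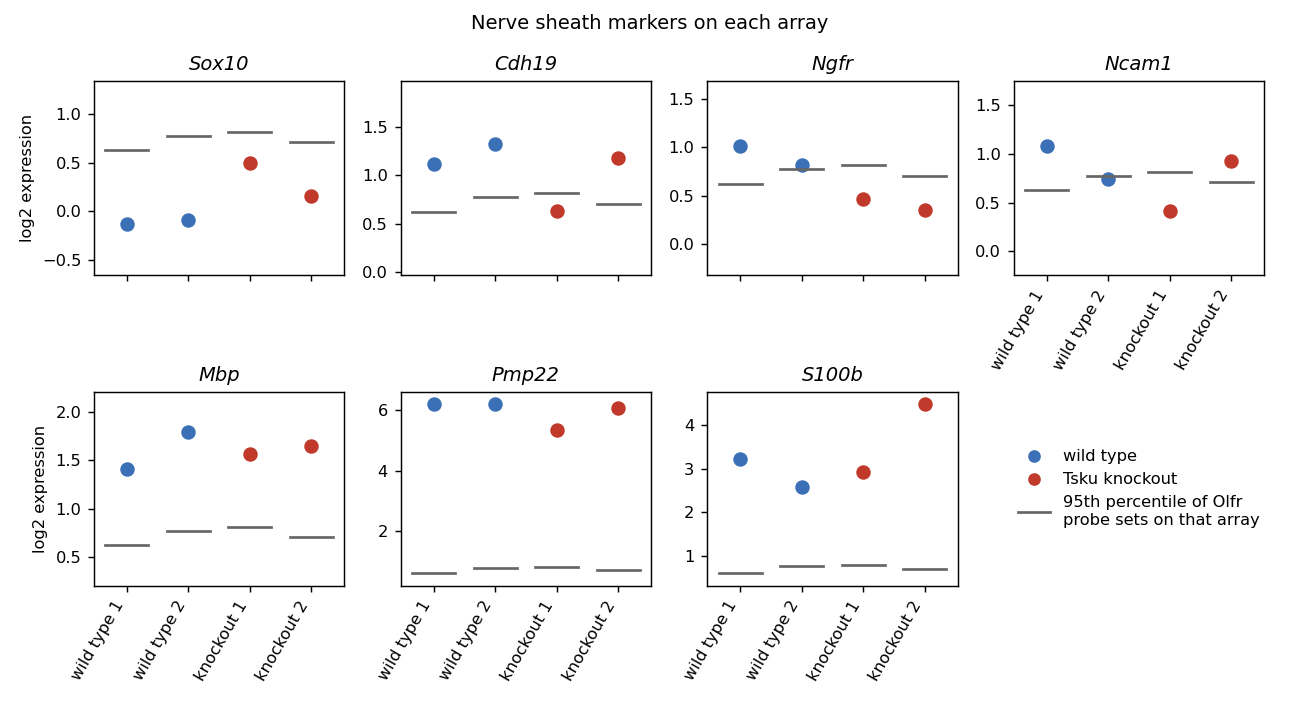
Log2 expression of each nerve sheath marker on each of the 4 arrays (points: blue, wild type; red, Tsku knockout) with the 95th percentile of the Olfr probe sets of the same array as a grey bar; the vertical scale differs between panels. Pmp22, S100b and Mbp sit above the bar on all 4 arrays, and Sox10 sits below it on all 4.

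Sox10, the fate factor, was not detectable above background. It read -0.13 and -0.09 in wild type against 0.49 and 0.16 in the knockout, each below the 95th percentile of the Olfr probe sets of its array. In wild type 36.6% and 32.9% of the Olfr probe sets were dimmer than Sox10, and in the knockout 86.3% and 69.9% were. The knockout arrays were therefore both higher without leaving the background range, and no fold is given. The fitted log2 difference, between values at background, was 0.44 (SE 0.20, 95% interval -0.06 to 0.94; limma adjusted p = 0.872), and it was 0.27 without knockout replicate 1 and 0.61 without knockout replicate 2. Melanocytes are the other cells outside the brain best known for SOX10, and their pigment genes Tyr, Dct, Tyrp1, Pmel and Mlana were all below background on the 4 arrays. Mitf, Ednrb and Kit, which other cells also use, were the 3 of 8 genes of the melanocyte list above it on all 4.

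S100b, a calcium-binding protein of the EF-hand family, had one of the clearest signals of the set. It read 3.22 and 2.57 in wild type against 2.93 and 4.47 in the knockout. At most 1 of the 1108 Olfr probe sets was as bright on any array. Knockout replicate 2 stood apart as the highest of the 4, while knockout replicate 1 lay between the wild-type arrays. The gap between the knockout arrays was 1.54, wider than that of 99.5% of all genes, whose median gap was 0.23. The means were 2.90 ± 0.46 (SD, n = 2) for wild type against 3.70 ± 1.09 (SD, n = 2) for the knockout. The log2 difference was 0.80 (SE 0.51, 95% interval -0.46 to 2.06; limma adjusted p = 0.895). It was 0.03 without knockout replicate 2 and 1.57 without knockout replicate 1, so the size of the difference rests on which knockout array is used.

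Calsyntenin 3 is linked with the release of S100B from brown adipocytes through a fat-specific form, and the annotation names only the gene, not a form. Clstn3 read 0.17 and -0.06 in wild type against 0.12 and 1.10 in the knockout. It was above background on knockout replicate 2 and below it on the other arrays, so no fold is given, and its part in the S100b value was not tested. Of 13 adipocyte markers, 10 were higher in the knockout, against 52.6% of all genes. Their summed linear signal was 7016 to 7064 in wild type against 7857 to 8003 in the knockout. No adipocyte marker was at background. The sum was 8003 in knockout replicate 1 and 7857 in replicate 2. The summed signal of 14 endothelial genes was 685 to 798 in wild type against 668 to 906 in the knockout, highest on knockout replicate 2. The part of adipocytes or endothelium in the S100b value was not tested. In tissue RNA, fewer cells of a type and less RNA per cell cannot be told apart.

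Among 116 genes of the other lists that were above background on all 4 arrays, the nearest to S100b were Apod, which encodes an apolipoprotein of endoneurial fibroblasts and other cells, and Notch3, a receptor of mural cells. Nearness was the mean absolute distance over the 4 arrays between log2 values centred on each gene's mean. It was not scaled by spread, so genes that vary little lie near others more readily. The distance was 0.38 for Apod and 0.40 for Notch3, so neither followed S100b closely.

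Pmp22, a membrane protein of compact myelin that other cells also make, was the marker farthest above its background. It read 6.19 and 6.19 in wild type against 5.33 and 6.06 in the knockout, and 0 Olfr probe sets were as bright. The wild-type arrays were nearly equal, both knockout arrays were below them, and knockout replicate 1 was the low one. The means were 6.1899 ± 0.0006 (SD, n = 2) and 5.69 ± 0.52 (SD, n = 2). The log2 difference was -0.50 (SE 0.28, 95% interval -1.18 to 0.18; limma adjusted p = 0.886), and it was -0.13 without knockout replicate 1 and -0.86 without knockout replicate 2.

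Among the same 116 genes, the nearest to Pmp22 were Csf1r, the receptor of the macrophage growth factor (distance 0.03), and C1qb (distance 0.05). C1qb encodes a complement subunit made by macrophages. Only genes of the chosen lists were searched, so genes outside them may lie as near. Csf1r read 3.95 and 3.83 in wild type against 3.03 and 3.76 in the knockout. Of the 13 macrophage markers 12 were lower in the knockout, against 47.4% of all genes. Their summed linear signal was 273 to 284 in wild type against 158 to 282 in the knockout. All 13 were above background on the 4 arrays. Knockout replicate 1 was the array with the lowest sum, as it was for Pmp22. Of 11 fibroblast and progenitor genes 10 were lower, against 47.4% of all genes. The 11 genes summed to 661 to 683 in wild type against 574 to 612 in the knockout. The part of either cell type in the Pmp22 value was not tested.

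Mbp, the basic protein that holds myelin layers together and whose gene also gives the golli forms of immune cells, was dim but above background. It read 1.41 and 1.80 in wild type against 1.57 and 1.65 in the knockout. On each array at most 6 Olfr probe sets were as bright. The knockout arrays lay between the wild-type arrays. The means were 1.61 ± 0.27 (SD, n = 2) and 1.61 ± 0.05 (SD, n = 2), and the log2 difference was 0.0014 (SE 0.21, 95% interval -0.52 to 0.52; limma adjusted p = 0.999). Among the 116 genes of the other lists, the nearest were Abcc9 and Il2rb (distances 0.03 and 0.07). Mbp varied little, from -0.19 to 0.19 around its mean, so small distances carry little here. Abcc9 encodes a potassium channel subunit of mural cells, and Il2rb a cytokine receptor of lymphocytes.

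Cdh19, a cadherin known from Schwann cells and their precursors, read 1.12 and 1.32 in wild type against 0.64 and 1.18 in the knockout. Knockout replicate 1 was below background and the only array to be so, while knockout replicate 2 lay between the wild-type values. The log2 difference was -0.31 (SE 0.24, 95% interval -0.91 to 0.28; limma adjusted p = 0.900). It was -0.04 without knockout replicate 1 and -0.58 without knockout replicate 2.

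Ngfr, the p75 neurotrophin receptor of immature and non-myelinating Schwann cells, had the smallest p of the set in the fit used here. It read 1.02 and 0.82 in wild type against 0.46 and 0.35 in the knockout. The value on knockout replicate 1, 0.4632, was shared to the last printed digit by several other genes on that array, and the cause was not tested. Both wild-type arrays were above background, replicate 2 by only 0.04, and both knockout arrays were below it. Counted from the background of each knockout array, the wild-type mean was at least 1.11-fold higher, a bound that leaves out sample spread. The means were 0.92 ± 0.14 (SD, n = 2) for wild type and 0.41 ± 0.08 (SD, n = 2) for the knockout. The fitted log2 difference was -0.51 (SE 0.19, 95% interval -0.97 to -0.04, limma adjusted p = 0.872), and it ran from -0.61 to -0.41 when single arrays were left out. Its unadjusted limma p was 0.037, but 0.059 with a replicate block and 0.081 when the prior variance followed the mean. That p stayed under 0.05 in the other runs on all 4 arrays that kept Ngfr. Whether the interval leaves out 0 therefore depends on the model. With the 99th percentile of the Olfr probe sets as background, 1.14 to 1.25, Ngfr was below it on all 4 arrays. Mural cells of vessels and fibroblasts can also carry p75. Of 12 pericyte and smooth muscle genes 5 were higher and 7 lower, with sums of 703 to 821 in wild type against 628 to 734 in the knockout. Rgs5 made up most of each sum, at 9.32 and 9.04 in wild type against 8.88 and 9.11 in the knockout. The part of these cells in the Ngfr value was not tested.

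Sort1, the sortilin that pairs with p75, was far above background, at 6.53 and 6.28 in wild type against 6.64 and 6.51 in the knockout, and the genotypes overlapped. Its log2 difference was 0.17 (SE 0.20; limma adjusted p = 0.930).

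Ncam1, a cell adhesion molecule of non-myelinating Schwann cells, axons and muscle, stayed near background. It read 1.09 and 0.74 in wild type against 0.42 and 0.93 in the knockout, so that replicate 1 of wild type and replicate 2 of the knockout were above background and the other two arrays were not. The log2 difference was -0.24 (SE 0.25, 95% interval -0.86 to 0.37; limma adjusted p = 0.922), and it was 0.01 without knockout replicate 1. The further Ncam1 probe set, shared with another gene, read -0.16 and -0.15 in wild type against 0.02 and -0.21 in the knockout. Each of these values was below background. Skeletal muscle genes, another possible source, were lower in the knockout in 20 of 20 cases, against 47.4% of all genes. Of the 20, 0 were below background on all 4 arrays, against 39.5% of all genes. Their summed linear signal was 383 to 577 in wild type against 111 to 259 in the knockout, lowest on knockout replicate 2, while Ncam1 was lowest on knockout replicate 1. Of 8 satellite cell and myoblast genes 7 were below background on all 4 arrays. Of 11 T and natural killer cell genes 7 were higher and 4 lower, with sums of 19.3 to 19.8 in wild type against 20.3 to 22.3 in the knockout. In that list 3 genes (Nkg7, Cd3e and Il2rb) were above background on all 4 arrays and 5 on none, Ncr1 and Klrb1c among them. The part of these cells in the Ncam1 value was not tested.

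**Figure D2:**
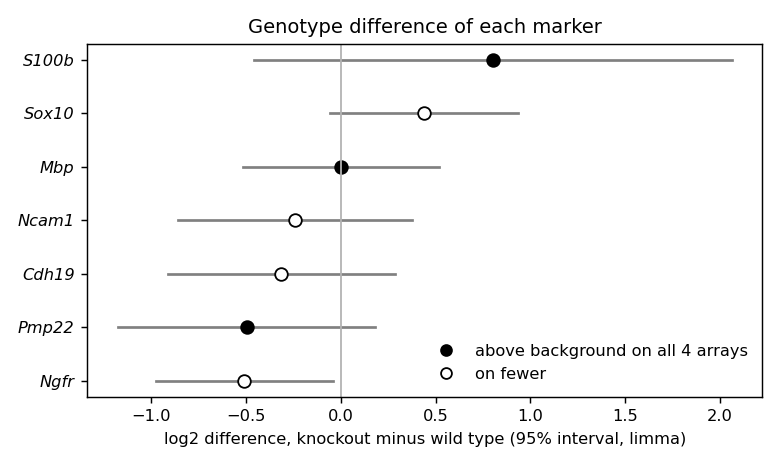
Log2 difference, knockout minus wild type, of each nerve sheath marker (points) with its 95% interval from limma (bars); filled points are genes above background on all 4 arrays. The interval of Ngfr, -0.97 to -0.04, is the only one of the 7 that leaves out 0, and its adjusted p is 0.872. With a replicate block the unadjusted limma p of Ngfr was 0.059.

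No marker passed the test of knockout against wild type. With limma and Benjamini-Hochberg adjustment over all genes, 0 of 7 markers had an adjusted p under 0.05, as did 0 of 22180 genes (0%). At an unadjusted p under 0.05, 1 of 7 markers (Ngfr, lower) stood against 5.56% of all genes, or 2.67% in the lower direction. The arrays of the genotypes did not overlap for 3 of 7 markers, Sox10 higher and Pmp22 and Ngfr lower in the knockout, where 35.2% of all genes did not overlap. With 7 markers, neither count stands apart from these shares. The markers had no common direction: 3 were higher (52.6% of all genes) and 4 lower (47.4%), with a median log2 difference of -0.24 against 0.02 over all genes. Without knockout replicate 1 that median was 0.01. An exact permutation test of 2 against 2 arrays could not give a two-sided p below 0.333.

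Knockout replicate 1 was the lowest of the 4 arrays for Pmp22, Cdh19 and Ncam1, that is for 3 of 7 markers. It was lowest for 25.3% of all genes, and with 7 markers the count does not stand apart from that share. On that array, measured from the 4-array mean of each gene, Pmp22 lay at -0.61, Cdh19 at -0.43 and Ncam1 at -0.38. S100b lay at -0.37, Ngfr at -0.20 and Mbp at -0.04, while Sox10 lay at 0.39. The median deviation on the same array was -0.55 for 13 macrophage genes, -0.23 for 14 endothelial genes and 0.62 for 12 liver genes. In the last list 11 of 12 genes were higher in the knockout, against 52.6% of all genes. The sums were 278 to 312 in wild type against 417 to 527 in the knockout. Hp, the brightest of that list, made up most of each sum. It read 7.92 and 8.16 in wild type against 8.76 and 8.54 in the knockout. Fgg was below background on all 4 arrays. The part of these cell types in the markers' values was not tested.

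**Figure D3:**
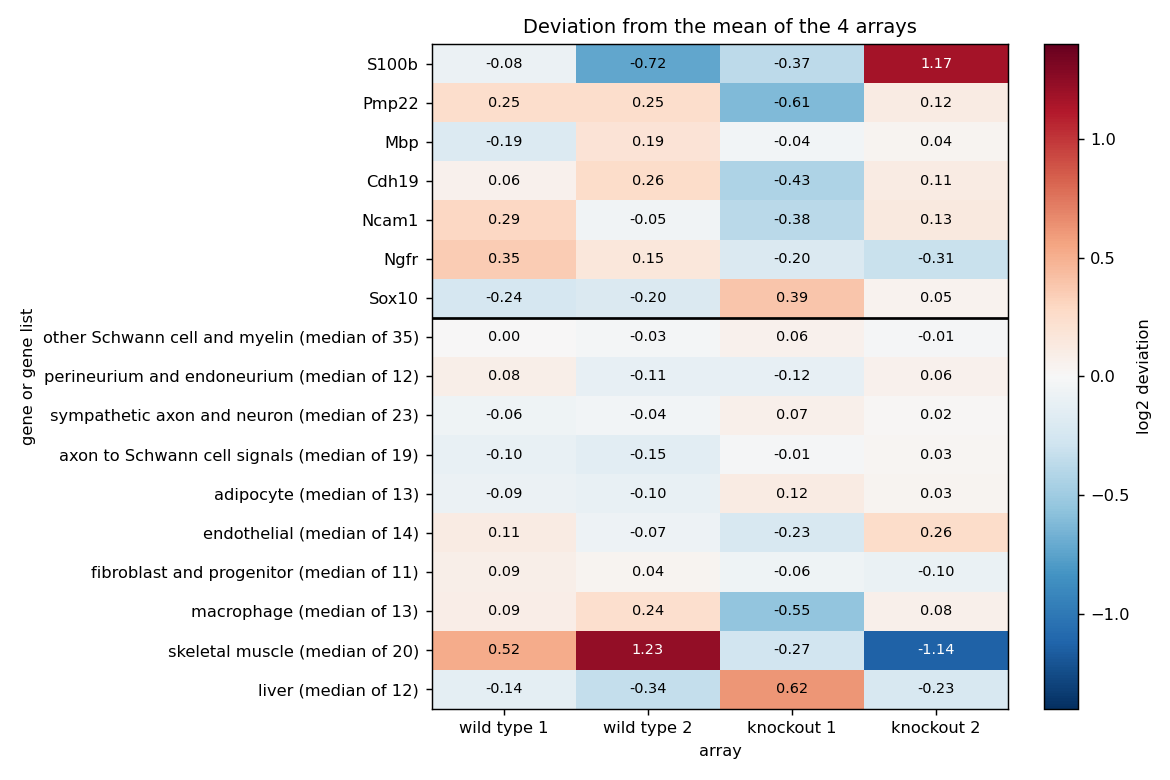
Log2 deviation from the mean of the 4 arrays for each nerve sheath marker (upper rows) and the median deviation of gene lists for nerve and other cell types (lower rows, number of measured genes in brackets). S100b is highest on knockout 2 (1.17), Pmp22 is lowest on knockout 1 (-0.61), and the median of the 35 other Schwann cell genes, which vary singly, lies between -0.03 and 0.06.

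A wider list of Schwann cell and myelin genes was partly at background. Of 38 genes 35 had a probe set, 8 of these were above background on all 4 arrays and 17 on none, against 44.7% and 39.5% of all genes. Mag, an adhesion protein of the innermost myelin layer, was below background on all 4 arrays, at -0.05 to 0.07. Erbb3, the neuregulin receptor of Schwann cells, was above it on all 4, at 2.10 and 1.82 in wild type against 2.06 and 1.77 in the knockout, and the genotypes overlapped (log2 difference -0.05, SE 0.21; limma adjusted p = 0.980). Egr2, which macrophages and other cells also induce, read 2.52 and 2.23 in wild type against 1.53 and 2.38 in the knockout, lowest on knockout replicate 1. Scn7a, a sodium channel gene of non-myelinating Schwann cells, read 4.56 to 5.16, and Art3, an ADP-ribosyltransferase gene, 6.09 to 6.29. These 2 were named after their values were seen, as the brightest of the list against background.

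In the same list 20 of 35 genes were higher and 15 lower in the knockout. The median log2 difference was 0.09, and 0 passed the adjusted threshold. At an unadjusted p under 0.05 there was 1 higher (2.89% of all genes) and 2 lower (2.67%). The 2 lower were Cldn19 and Pou3f1, and Pou3f1 was below background on every array. Cldn19, a claudin of Schwann cell tight junctions, read 1.94 and 1.81 in wild type against 1.26 and 0.99 in the knockout, above background throughout and without overlap. Its log2 difference was -0.75 (SE 0.20; limma adjusted p = 0.872). Fabp7, a fatty acid binding protein of Schwann cell precursors, read 2.17 and 1.22 in wild type against 2.59 and 2.74 in the knockout, a difference of 0.97 (SE 0.33; limma adjusted p = 0.872). Ugt8a, the enzyme that makes the galactolipids of myelin, lay below background on both knockout arrays, and wild type exceeded it by at least 1.30-fold. Cadm4, an adhesion molecule through which Schwann cells meet axons, lay below background on both wild-type arrays and on knockout replicate 1. It was above background only on knockout replicate 2, at 1.05, so no fold is given.

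The perineurium, the cell layer around each nerve bundle, and the endoneurium within it were covered by 12 genes. Of these, 7 were above background on all 4 arrays, against 44.7% of all genes. 6 were higher and 6 lower, with a median log2 difference of -0.04 and 0 past the adjusted threshold. At an unadjusted p under 0.05 there were 2 higher and 1 lower, 3 of 12 genes against 5.56% of all genes. Etv1, an ETS transcription factor, read 2.62 and 3.13 in wild type against 1.97 and 1.67 in the knockout (log2 difference -1.05, SE 0.25; limma adjusted p = 0.872). Osr2, a zinc finger factor of mesenchymal cells, read 1.37 and 1.28 in wild type against 2.06 and 2.13 in the knockout (0.77, SE 0.18; limma adjusted p = 0.872). Sox9, a factor of endoneurial and other mesenchymal cells, differed by 0.57 and Cldn1, the claudin of perineurial junctions, by -0.45, with overlap between genotypes for Cldn1 and none for Sox9. These genes went in both directions, and Etv1, Osr2 and Sox9 are used by cells outside nerves too.

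Transcripts of the sympathetic axons themselves were mostly not detectable. Of 23 measured genes 16 were below background on all 4 arrays, against 39.5% of all genes. Th and Dbh, the enzymes of noradrenaline synthesis, were among them, at -0.01 to 0.27 for Th and -0.25 to 0.36 for Dbh. The cell bodies of these neurons lie in ganglia outside the fat. The 3 genes above background on all 4 arrays were Stmn2, Syp and Rtn1. Stmn2, a microtubule regulator of growing axons, read 0.74 and 0.91 in wild type against 1.59 and 1.82 in the knockout, without overlap between genotypes. Its log2 difference was 0.88 (SE 0.20, limma adjusted p = 0.872). The wild-type values were close to background, 0.62 and 0.77, and below the 99th percentile of the Olfr probe sets, 1.14 and 1.25. Chgb, a secretory granule protein, lay below background on both wild-type arrays and on knockout replicate 2. It was above background only on knockout replicate 1, at 1.06, so no fold is given. Uchl1, a ubiquitin hydrolase abundant in neurons, was above background on 1 wild-type array, and Nefh, the heavy neurofilament, on 2 arrays, 1 of each genotype. Over the list 16 genes were higher and 7 lower, with a median of 0.08, 2 at an unadjusted p under 0.05, both higher (2.89% of all genes), and 0 past the adjusted threshold.

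Of 23 genes for signals between axons and Schwann cells, 19 were measured. Above background on all 4 arrays were 9, against 44.7% of all genes. 11 were higher and 8 lower in the knockout. The median log2 difference was 0.13, with 0 at an unadjusted p under 0.05 and 0 past the adjusted threshold of limma. Nrg1, the neuregulin gene, was below background on all 4 arrays. Erbb2 was above it on 1 array, knockout replicate 1, at 0.98. Ret, the signalling receptor for GDNF, read 0.72 and 0.46 in wild type against 1.26 and 0.83 in the knockout. Its log2 difference was 0.46 (SE 0.23; limma adjusted p = 0.872). Ret was below background on wild-type replicate 2 and above it on the other arrays. Ntrk2, the receptor for BDNF, read 2.48 and 2.18 in wild type against 2.84 and 2.53 in the knockout, where the lower knockout array was above the higher wild-type array by little (0.35, SE 0.22; limma adjusted p = 0.895).

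**Figure D4:**
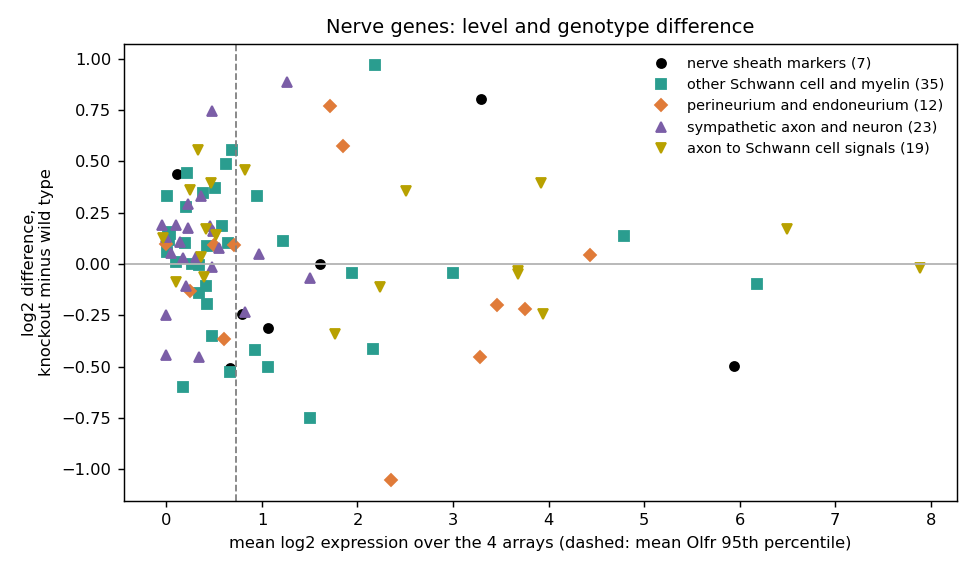
Mean log2 expression over the 4 arrays against the log2 difference, knockout minus wild type, for the 7 nerve sheath markers and the 4 wider nerve lists; the dashed line is the mean 95th percentile of the Olfr probe sets. Differences lie on both sides of 0 in each list, and most sympathetic axon genes (triangles) lie left of the line.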

How the data were processed

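The authors deposited 1 table of normalised log2 values for 41345 probe sets on 4 arrays. The submitters' processing notes list RMA, oligo and limma with no role, and the genome build is not given in the sources used here. Base 2 is assumed, as RMA returns it. Array medians of 0.56 to 0.58 point to an unstated offset, so levels are read only against background. RMA compresses dim probe sets, which understates differences of dim genes.

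Probe sets with 1 annotated gene symbol (23521 of them) were used, the highest-mean one per gene. Genotypes were compared with limma 3.58.1 in R 4.3.3 (lmFit, eBayes, two-sided, Benjamini-Hochberg over 22180 genes, threshold 0.05), with 2 residual and 3.96 prior degrees of freedom and no filter. The fit was tested on simulated data. Nothing says that samples came from separate mice, so p-values reflect the spread between samples, possibly technical. Where both arrays of 1 genotype were at or below background, a fold is given as a lower bound. The bound is taken from the brighter mean and the mean of, per array, the higher of background and the dim value. It compares means and leaves out the spread between samples. No fold is given where that bound is under 1, where both genotypes are at background, or where an array of the brighter genotype is. A fitted difference printed for such a gene is no measure of fold. Summed signals add the values after undoing the logarithm.

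The members, 14 other gene lists and the naming rule were chosen with earlier results of these data known. Named were all markers, up to 4 genes per nerve list with the smallest p among those above background on at least 1 array, Mag, Egr2, Erbb3, Th, Dbh, Sort1 and Clstn3, and the 2 nearest genes of each marker above background on all arrays. Nrg1, Pou3f1, Scn7a, Art3, Syp, Rtn1, Hp, Rgs5, Fgg, Nkg7, Cd3e, Ncr1, Klrb1c and the melanocyte genes were named after their values were seen. Some genes of the rule are not reported here.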

Additional observations from a re-analysis of the deposited data

How the results depend on the processing

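Of the 7 markers, 0 passed the adjusted threshold of limma under any alternative run (other normalizations, probe set rules, filters on dim genes, variance priors, array weights, a replicate block and each sample left out). The filters removed Sox10 and Ngfr, which have no value there. Among all genes, 1 gene passed with the replicate block, 1 when the prior variance followed the mean, and 0 to 15 with single samples left out (15 without wild-type replicate 1, 2 without wild-type replicate 2). Same-numbered samples showed no clear pairing (correlation of deviations -0.07 across genes). With 2 pairs and genes that are not independent, this cannot exclude a shared batch or pairing. With single samples left out, the median difference of the markers ran from -0.45 to 0.011, that of Mbp from -0.19 to 0.19 and that of Ncam1 from -0.50 to 0.011; the values above 0 for the median and Ncam1 came without knockout replicate 1. Mbp was -0.0037 with arrays centred on their medians. The cause was not tested. With the Olfr median as background 6 of 7 markers were above it on all arrays, and with single samples left out 3 to 4 were above the 95th percentile on the rest. With 2 arrays per genotype the precision allows few calls.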
